A study of Homo sapiens with 8 samples.

Results

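The genes of mitosis and chromosome segregation were followed as a set of 44 named members: the A- and B-type cyclins with CDK1, the mitotic kinases, the chromosomal passenger complex, the spindle checkpoint, kinetochore, kinesin, spindle and cytokinesis genes, condensin, and the mitotic chromosome proteins TOP2A and MKI67. Members were matched by gene symbol, and all 44 were found among the 11644 genes measured at day 2 and the 14070 genes measured at day 0. RNA-seq was done on H1, an established human embryonic stem cell line, either wild type or carrying a knockout of SETD7, a lysine methyltransferase that acts on histone H3 and on other proteins. At day 0 there was 1 library of wild-type cells and 1 of knockout cells kept in mTESR, a medium for undifferentiated stem cells. At day 2 of induction towards blood-forming cells there were 3 wild-type and 3 knockout libraries. The sources used here do not give how the knockout was made or whether its cells came from 1 clone, nor do they say that replicates were separate cultures, so the p-values measure the spread between these libraries, which may be technical.

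Mitosis is driven by CDK1 bound to cyclins, which starts the condensation of chromosomes by condensin and the building of the spindle by motor proteins and Aurora kinases. The spindle checkpoint holds cells until every kinetochore is attached. The anaphase-promoting complex, activated by CDC20, then marks cyclin B and securin for destruction, separase opens the cohesin rings that hold sister chromatids, and cytokinesis follows. Most of these genes are transcribed in G2 and mitosis and are low in G1, so in an unsorted culture their mRNA reflects how many cells are in those phases as well as how much each cell makes. Human embryonic stem cells divide fast, with a short G1, and the same genes are abundant in them.

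At day 2 the set was lower in the knockout. Of the 44 members, all of which were tested, 28 fell and 0 rose by edgeR's quasi-likelihood test (adjusted p under 0.05 over all 11475 genes tested), where 11.0% of all genes were called lower and 12.3% higher. At an unadjusted p under 0.05 in edgeR the numbers were 32 lower and 0 higher. No share of all genes was taken at that threshold. This count and the unadjusted counts of other lists below are therefore not read as results. DESeq2 and limma-voom each gave 28 and 0, where they called 9.79% and 11.1% of all genes lower. The median log2 fold change of the members was −0.15, against −0.00 (−0.00262) for all genes tested, so the changes were small: the largest was −0.36 in CKAP2. In 33 members all 3 knockout libraries lay below all 3 wild-type libraries, which was so for 18.8% of all genes. In bulk RNA, fewer cells in G2 and mitosis and less of these mRNAs per cell cannot be told apart.

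**Figure D1:**
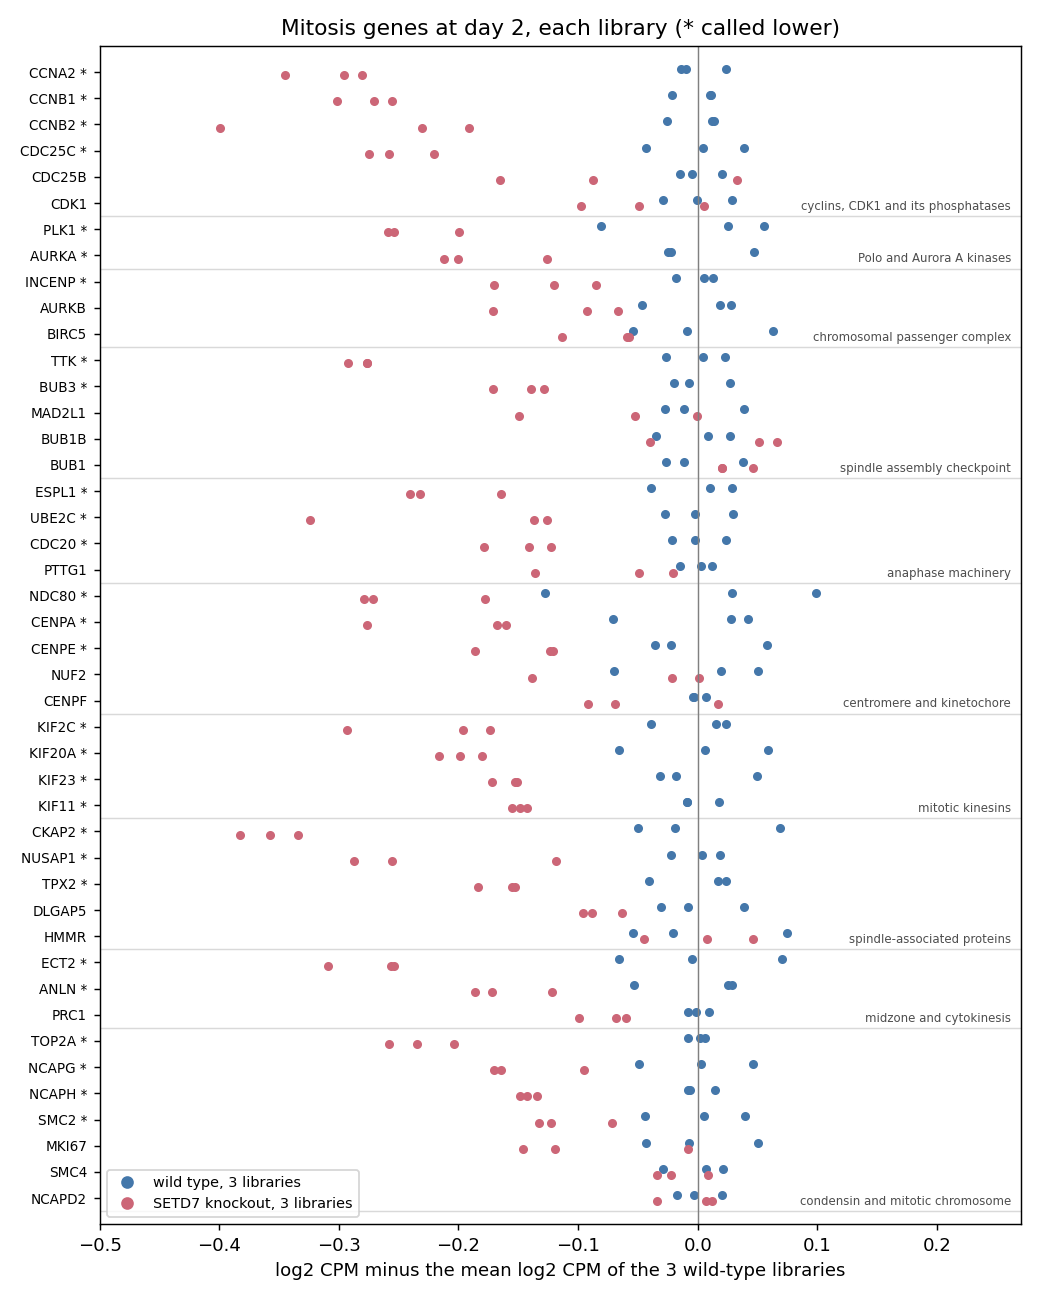
Each row is a member, grouped by role, and each point is a library at day 2. The x axis is log2 CPM (counts scaled to a common library size) minus the mean log2 CPM of the 3 wild-type libraries, blue for wild type and red for knockout, with an asterisk for the 28 members called lower. The red points lie left of the blue ones in 33 members, and the rows of BUB1, BUB1B, HMMR, SMC4 and NCAPD2 show both colours around 0.

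Day 2 libraries held from 27880068 to 39553614 counts each, while the depth at day 0 is unknown. SETD7 mRNA was 55.5 ± 0.710 CPM in wild type and 31.8 ± 2.56 CPM in the knockout at day 2 (SD, n = 3), and 3.53 against 1.48 FPKM (which corrects for gene length and depth) at day 0. Which part of the gene was altered is not known here, so its mRNA is a limited check of the labels. At day 0 the 9 pluripotency markers summed to 1414 FPKM in wild type and 1397 FPKM in the knockout, against 62.7 and 76.1 FPKM for 9 primitive streak and mesoderm markers. Most of the latter sum was KDR (55.8 and 69.8 FPKM), while TBX6, the next highest, was at 3.97 and 1.75 FPKM. At day 2 the pluripotency markers (8 of 9 tested) summed to 2351 to 2375 CPM in wild type and 2406 to 2454 CPM in the knockout, with TDGF1 called higher and NANOG lower. The streak and mesoderm markers summed to 6348 to 6385 and 6707 to 6754 CPM. Of these 9 markers 4 were called higher (44.4%, against 12.3% of all genes) and 2 lower (22.2%, against 11.0%). The 4 higher ones were PDGFRA (0.26), APLNR (0.13), KDR (0.12) and MIXL1 (0.10), and the 2 lower ones were T (−0.26) and HAND1 (−0.17). Fibroblast and stroma markers (4 of 6 tested) summed to 356 to 373 CPM in wild type and 487 to 510 CPM in the knockout. Most of that sum was COL1A2 (246 ± 5.40 and 359.6 ± 8.20 CPM), which was called higher (0.55), as was COL1A1 (0.29). LUM in the same list was called lower (−0.57, edgeR adjusted p 0.00773). Of the 4 tested, 50% were called higher and 25% lower, against 12.3% and 11.0% of all genes. Definitive endoderm markers (5 of 6 tested) summed to 7696 to 7782 and 8556 to 8721 CPM, nearly all of it CER1 (7482 ± 44.4 and 8432 ± 100.5 CPM). CER1 (0.17) and GSC (0.25) were called higher, 40% of those tested, against 12.3% of all genes. SOX17 was called lower, from 151 ± 3.30 to 102 ± 3.30 CPM (−0.56, edgeR adjusted p 2.52e-13), 20% of those tested, against 11.0%. Of 7 endothelial and blood markers only RUNX1 was tested, at 25.6 to 30.2 CPM in wild type and 25.3 to 25.7 CPM in the knockout. The part of these cell types in the fall of the mitosis genes was not tested. Knockout replicate 1 differed more from the other knockout libraries (chi-square per degree of freedom 6.12 and 8.74) than they did from each other (2.86). Without knockout replicate 1, 30 members were called lower and 0 higher, where 9.84% of all genes were called lower.

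The members together took 0.802%, 0.806% and 0.803% of the counts of the wild-type libraries, in order of replicate, and 0.740%, 0.735% and 0.735% in the knockout. The 95% Wilson intervals, which cover counting error only, began at 0.799% in the lowest wild-type library and ended at 0.743% in the highest knockout library. The groups did not overlap. The median member's log2 difference from the wild-type mean was −0.16, −0.14 and −0.14 in knockout replicates 1, 2 and 3, and 39, 40 and 39 of the 44 members lay below that mean.

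The cyclins that bind CDK1 fell, while CDK1 itself did not pass the test. In order of replicate, CCNA2, the A-type cyclin of S phase and G2, was at 306, 298 and 299 CPM in wild type and 237, 245 and 248 CPM in the knockout (means 301 ± 4.29 and 244 ± 5.60, SD, n = 3), a log2 change of −0.31 (standard error 0.032, edgeR adjusted p 5.62e-09). CCNB1, which brings CDK1 into the nucleus at mitotic entry, was at 322, 322 and 315 CPM in wild type and 259.6, 268 and 265 CPM in the knockout (means 319.9 ± 4.17 and 264 ± 4.22, SD, n = 3), a log2 change of −0.28 (standard error 0.031, edgeR adjusted p 2.83e-08). CCNB2, the second B-type cyclin of dividing cells, was at 90.0, 92.5 and 92.4 CPM in wild type and 69.4, 78.1 and 80.2 CPM in the knockout (means 91.6 ± 1.42 and 75.9 ± 5.72, SD, n = 3), a log2 change of −0.27 (standard error 0.047, edgeR adjusted p 4.13e-05). In each of these cyclins the highest knockout library lay below the lowest wild-type library, and knockout replicate 1 was the lowest. CDC25C, a phosphatase that removes inhibitory phosphates from CDK1, was at 31.4, 32.4 and 33.2 CPM in wild type and 27.0, 27.7 and 26.7 CPM in the knockout (means 32.3 ± 0.924 and 27.2 ± 0.524, SD, n = 3), a log2 change of −0.25 (standard error 0.062, edgeR adjusted p 0.00266). CDK1 was at 345, 338 and 332 CPM in wild type and 316, 327 and 339.6 CPM in the knockout, with overlapping groups, and its log2 fold change of −0.05 had a 95% interval of −0.11 to 0.02 (edgeR adjusted p 0.318). CDC25B, the relative of CDC25C that acts at the centrosome, also overlapped (−0.07, interval −0.19 to 0.05).

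Both kinases that act on the spindle poles fell. PLK1, the Polo kinase of mitotic entry and centrosome maturation, was at 163, 175 and 179 CPM in wild type and 144, 144 and 149.9 CPM in the knockout (means 172 ± 8.44 and 146 ± 3.35, SD, n = 3), a log2 change of −0.24 (standard error 0.038, edgeR adjusted p 1.02e-05). AURKA, the Aurora kinase of centrosomes and spindle assembly, was at 137, 144 and 138 CPM in wild type and 121, 122 and 128 CPM in the knockout (means 139.7 ± 3.96 and 123 ± 4.05, SD, n = 3), a log2 change of −0.18 (standard error 0.038, edgeR adjusted p 0.000568). The lowest wild-type library of PLK1, at 163 CPM, was still above the highest knockout library. In the chromosomal passenger complex, which corrects faulty kinetochore attachments, 1 of 3 genes passed. INCENP, its scaffold, was at 119, 121 and 122 CPM in wild type and 114, 111 and 107 CPM in the knockout (means 121 ± 1.35 and 111 ± 3.29, SD, n = 3), a log2 change of −0.12 (standard error 0.039, edgeR adjusted p 0.0171). Its call was lost when wild-type replicate 2, wild-type replicate 3 or knockout replicate 3 was left out (edgeR adjusted p 0.0612, 0.0707 and 0.121; lowest under any alternative 4.55e-05, highest 0.121). The kinase AURKB (log2 fold change −0.11, edgeR adjusted p 0.0520) and the survivin gene BIRC5 (−0.08, adjusted p 0.131) did not pass, although in both the genotypes did not overlap. AURKB passed without wild-type replicate 1 (edgeR adjusted p 0.0385) or knockout replicate 1 (0.0200), in a range of 0.0196 to 0.222.

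The spindle checkpoint was divided. TTK, the kinase known as MPS1 that starts checkpoint signalling at unattached kinetochores, was at 90.0, 92.0 and 93.2 CPM in wild type and 75.7, 75.7 and 74.9 CPM in the knockout (means 91.7 ± 1.59 and 75.4 ± 0.472, SD, n = 3), a log2 change of −0.28 (standard error 0.042, edgeR adjusted p 4.13e-06). BUB3, which carries the other BUB proteins to kinetochores, was at 190.5, 189 and 195 CPM in wild type and 170.1, 175 and 174 CPM in the knockout (means 191 ± 3.23 and 173 ± 2.64, SD, n = 3), a log2 change of −0.15 (standard error 0.034, edgeR adjusted p 0.00143). The 3 knockout libraries of TTK lay within 1 CPM of each other and well below the wild type. The checkpoint kinase BUB1 was at 158, 165 and 159.5 CPM in wild type and 166, 163 and 163 CPM in the knockout, with a log2 fold change of 0.03 (95% interval −0.04 to 0.10, edgeR adjusted p 0.606). BUB1B, which encodes the checkpoint protein BUBR1, also overlapped (0.03, interval −0.05 to 0.11), as did MAD2L1, the inhibitor of CDC20 (−0.07, interval −0.14 to 0.01). BUB1 and BUB1B kept a positive sign under all 14 alternatives and passed in none.

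Of 4 genes of the anaphase machinery 3 fell. CDC20, the activator of the anaphase-promoting complex, was at 212, 219 and 215 CPM in wild type and 190.1, 195 and 198 CPM in the knockout (means 215 ± 3.39 and 194 ± 3.84, SD, n = 3), a log2 change of −0.15 (standard error 0.033, edgeR adjusted p 0.00105). UBE2C, the ubiquitin-conjugating enzyme of that complex, was at 179, 176 and 183 CPM in wild type and 143, 164 and 163 CPM in the knockout (means 179 ± 3.52 and 157 ± 11.9, SD, n = 3), a log2 change of −0.19 (standard error 0.042, edgeR adjusted p 0.000989). ESPL1, the separase that cuts cohesin, was at 134, 139 and 141 CPM in wild type and 123, 117 and 118 CPM in the knockout (means 138 ± 3.36 and 119 ± 3.48, SD, n = 3), a log2 change of −0.21 (standard error 0.038, edgeR adjusted p 6.97e-05). Knockout replicate 1 was the lowest library for UBE2C and CDC20 and the highest knockout library for ESPL1. PTTG1, the securin that blocks separase, had a log2 fold change of −0.07 and did not pass (edgeR adjusted p 0.286), though its knockout libraries (70.0, 74.3 and 75.8 CPM) all lay below its wild-type libraries (77.5, 77.0 and 76.1 CPM).

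Among 5 centromere and kinetochore genes 3 fell. NDC80, an outer kinetochore protein that grips microtubules, was at 70.1, 62.9 and 73.6 CPM in wild type and 56.6, 56.9 and 60.7 CPM in the knockout (means 68.9 ± 5.45 and 58.1 ± 2.29, SD, n = 3), a log2 change of −0.25 (standard error 0.053, edgeR adjusted p 0.000672). CENPE, a kinetochore motor, was at 214, 202 and 200.1 CPM in wild type and 189, 188 and 180.3 CPM in the knockout (means 205 ± 7.30 and 186 ± 4.72, SD, n = 3), a log2 change of −0.14 (standard error 0.035, edgeR adjusted p 0.00247). CENPA, the histone H3 variant that marks centromeres, was at 41.5, 41.1 and 38.4 CPM in wild type and 36.1, 35.9 and 33.3 CPM in the knockout (means 40.4 ± 1.70 and 35.1 ± 1.56, SD, n = 3), a log2 change of −0.20 (standard error 0.058, edgeR adjusted p 0.011). The groups did not overlap in these 3 genes, but NDC80 had the widest wild-type spread of the set relative to its mean (7.92%). CENPA did not pass when wild-type replicate 1, wild-type replicate 2 or knockout replicate 3 was left out (edgeR adjusted p 0.0673, 0.0651 and 0.1003, in a range of 0.0106 to 0.1003). NUF2, the partner of NDC80 in the same complex, overlapped between genotypes (−0.05, edgeR adjusted p 0.510). CENPF, a large kinetochore protein, had a log2 fold change of −0.05 (edgeR adjusted p 0.307) and passed without knockout replicate 1 (−0.08, adjusted p 0.0286, in a range of 0.0286 to 0.663).

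All 4 mitotic kinesins fell. KIF11, the motor that pushes spindle poles apart, was at 201, 201 and 204 CPM in wild type and 182, 181 and 183 CPM in the knockout (means 202 ± 2.17 and 182 ± 0.818, SD, n = 3), a log2 change of −0.15 (standard error 0.033, edgeR adjusted p 0.000896). KIF20A, a motor of the central spindle, was at 137, 143 and 131 CPM in wild type and 121, 118 and 119 CPM in the knockout (means 137 ± 5.91 and 119 ± 1.48, SD, n = 3), a log2 change of −0.20 (standard error 0.039, edgeR adjusted p 0.000196). KIF23, a subunit of centralspindlin, was at 153, 155 and 162 CPM in wild type and 141, 141 and 139 CPM in the knockout (means 157 ± 4.78 and 140.4 ± 1.15, SD, n = 3), a log2 change of −0.16 (standard error 0.036, edgeR adjusted p 0.00123). These 3 motors had tight knockout groups, with SDs of 0.818 to 1.48 CPM. KIF2C, which takes microtubules apart at centromeres, was at 92.7, 96.3 and 96.8 CPM in wild type and 84.4, 83.1 and 77.7 CPM in the knockout (means 95.3 ± 2.24 and 81.8 ± 3.55, SD, n = 3), a log2 change of −0.22 (standard error 0.043, edgeR adjusted p 0.000235).

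The member with the largest change was a spindle gene. CKAP2, a microtubule-stabilizing spindle protein, was at 189.7, 179 and 175 CPM in wild type and 141, 143 and 139 CPM in the knockout (means 181 ± 7.82 and 141 ± 2.37, SD, n = 3), a log2 change of −0.36 (standard error 0.037, edgeR adjusted p 4.06e-09). TPX2, which activates AURKA on the spindle, was at 500.2, 521 and 523 CPM in wild type and 453, 462 and 463 CPM in the knockout (means 515 ± 12.5 and 459 ± 5.40, SD, n = 3), a log2 change of −0.16 (standard error 0.031, edgeR adjusted p 0.00012). NUSAP1, which bundles spindle microtubules, was at 136, 138 and 134 CPM in wild type and 114, 125 and 111 CPM in the knockout (means 136 ± 1.97 and 117 ± 7.39, SD, n = 3), a log2 change of −0.22 (standard error 0.041, edgeR adjusted p 0.000126). The 3 genes had no overlap between genotypes, and knockout replicate 2 of NUSAP1 lay nearest to the wild type. HMMR, a spindle protein also known as a hyaluronan receptor, was at 83.8, 81.9 and 89.6 CPM in wild type and 82.4, 87.8 and 85.5 CPM in the knockout, with a log2 fold change of 0.00 (0.00202, 95% interval −0.09 to 0.09) whose sign changed when single libraries were left out. DLGAP5, which stabilizes kinetochore fibres, missed the threshold (−0.08, edgeR adjusted p 0.0795). Of the cytokinesis genes, ECT2, the activator of RhoA at the division plane, was at 147, 139 and 134 CPM in wild type and 117, 113 and 117 CPM in the knockout (means 139.9 ± 6.66 and 116 ± 2.48, SD, n = 3), a log2 change of −0.27 (standard error 0.039, edgeR adjusted p 2.47e-06). ANLN, the anillin of the contractile ring, was at 178, 179 and 169 CPM in wild type and 154, 155 and 161 CPM in the knockout (means 175 ± 5.58 and 157 ± 3.67, SD, n = 3), a log2 change of −0.16 (standard error 0.036, edgeR adjusted p 0.000984). The microtubule bundler PRC1 did not pass (−0.08, edgeR adjusted p 0.175), although its 3 knockout libraries lay below the wild type.

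Of the 7 condensin and mitotic chromosome genes 4 fell. TOP2A, the topoisomerase that untangles sister chromatids, had the highest wild-type CPM of the set, with 594, 599 and 598 CPM in wild type and 518, 507 and 499 CPM in the knockout (means 597 ± 3.04 and 508 ± 9.52, SD, n = 3), a log2 change of −0.23 (standard error 0.03, edgeR adjusted p 3.57e-07). The condensin I subunit NCAPG was at 137, 132 and 141 CPM in wild type and 122, 122 and 128 CPM in the knockout (means 137 ± 4.54 and 124 ± 3.63, SD, n = 3), a log2 change of −0.14 (standard error 0.038, edgeR adjusted p 0.00542), and did not pass without wild-type replicate 3 (edgeR adjusted p 0.0600, in a range of 0.00216 to 0.0600). NCAPH, the subunit that closes the condensin I ring, was at 92.9, 91.5 and 91.6 CPM in wild type and 83.8, 83.3 and 83.0 CPM in the knockout (means 92.0 ± 0.803 and 83.4 ± 0.409, SD, n = 3), a log2 change of −0.14 (standard error 0.041, edgeR adjusted p 0.0104). Neither TOP2A, NCAPG nor NCAPH overlapped between genotypes. SMC2, a core ATPase of condensin, was at 130.1, 135 and 138 CPM in wild type and 122, 128 and 123 CPM in the knockout (means 134 ± 3.91 and 124 ± 2.83, SD, n = 3), a log2 change of −0.11 (standard error 0.038, edgeR adjusted p 0.033). It was the least secure call: upper-quartile scaling gave an edgeR adjusted p of 0.0712 and a replicate block 0.0711. Leaving out wild-type replicate 2, wild-type replicate 3, knockout replicate 1 or knockout replicate 3 gave 0.0976, 0.171, 0.0684 and 0.122, in a range of 0.0212 to 0.171. Its partner SMC4 (−0.02, interval −0.08 to 0.05) and the condensin I subunit NCAPD2 (−0.01, interval −0.07 to 0.06) overlapped between genotypes, and both had positive log2 fold changes with upper-quartile scaling (0.000215 and 0.0105). MKI67, the Ki-67 protein that coats mitotic chromosomes, was at 397, 414 and 388 CPM in wild type and 397, 361 and 368 CPM in the knockout, with overlapping groups (−0.09, edgeR adjusted p 0.0577). Without knockout replicate 1 it passed (−0.13, edgeR adjusted p 0.000326, in a range of 3.65e-05 to 0.294).

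Pairs of partners in a complex, and the motors KIF20A and KIF23 against the microtubule bundler PRC1, were also compared by ratio. Count ratios within a library do not depend on scaling between libraries, and those given here were chosen after the values had been seen, so they carry no test. The CCNB1 to CDK1 count ratio was 0.934, 0.952 and 0.950 in wild type and 0.821, 0.819 and 0.781 in the knockout. The CCNA2 to CDK1 ratio was 0.890 ± 0.0103 and 0.744 ± 0.0116 (SD, n = 3), and the CCNB2 to CDK1 ratio was 0.271 ± 0.00919 and 0.232 ± 0.0104. In all 3 ratios the knockout lay below the wild type in every library. NDC80 to NUF2 went from 1.29 ± 0.0479 to 1.13 ± 0.0434, again without overlap. BUB1 to BUB3 was higher in the knockout, at 0.840 ± 0.0299 and 0.948 ± 0.0243, as was BUB1B to BUB3, at 0.633 ± 0.00685 and 0.713 ± 0.0341. KIF20A to PRC1 (1.38 ± 0.0651 and 1.26 ± 0.0210) and KIF23 to PRC1 (1.58 ± 0.0384 and 1.49 ± 0.0102) were lower in every knockout library. The other 3 of the 11 pairs overlapped between genotypes: AURKA to TPX2 (0.272 ± 0.00748 and 0.269 ± 0.00712), AURKB to INCENP (0.852 ± 0.0145 and 0.861 ± 0.0381) and SMC2 to SMC4 (0.471 ± 0.0184 and 0.441 ± 0.0160).

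**Figure D2:**
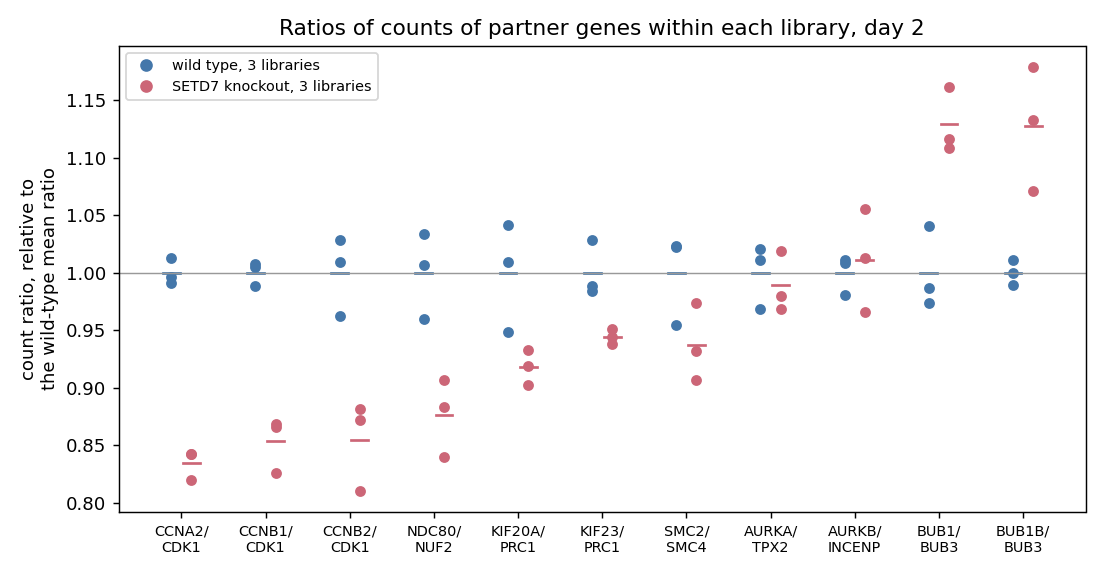
The y axis is the ratio of the counts of a pair of genes within a library at day 2, divided by the mean ratio of the wild-type libraries. Points are libraries (blue wild type, red knockout) and bars are means of 3. The cyclin to CDK1 ratios of the knockout lie below those of the wild type, the BUB1 and BUB1B to BUB3 ratios lie above, and AURKA to TPX2, AURKB to INCENP and SMC2 to SMC4 overlap.

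Exons of 17 members overlap another annotated gene in GENCODE release 29, and whether reads were counted by strand is not stated in the sources used here, so their values are uncertain. Among the called members these are ANLN, CCNA2, CDC25C, CENPA, KIF20A, KIF23, KIF2C, NCAPG, NUSAP1 and PLK1, and among the others BUB1B, HMMR, MAD2L1, NCAPD2, NUF2, PRC1 and SMC4. Of the 27 members without such an overlap, 18 were called lower. In BUB1B, CENPA, NUSAP1 and PRC1 an overlapping gene lies on the same strand, so counting by strand would not separate the shared exons. The members lie on 18 chromosomes, at most 5 on any of them. CCNA2 is at chromosome 4, 121816444 to 121823933 (minus strand, GRCh38), CCNB1 at chromosome 5, 69167010 to 69178245 (plus), CKAP2 at chromosome 13, 52455429 to 52476628 (plus), and TOP2A at chromosome 17, 40388516 to 40417950 (minus). The closest pair was CDC25C and KIF20A, 97550 bases apart on chromosome 5. Across the 44 members, which share the same 6 libraries, the log2 fold change had a Pearson correlation of 0.01 (0.00574) with the GC content of the longest transcript, 0.27 with log2 exon length and 0.05 with log2 wild-type CPM. Where trends with GC content and length were removed from every library, 33 members were called lower and 0 higher. All genes then divided into 2047 lower and 1283 higher, in place of 1262 and 1406, so 17.9% of genes were called lower.

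Many G2 and mitosis promoters carry a short element called the cell cycle genes homology region (CHR), bound by the MuvB core, together with CCAAT boxes bound by NF-Y. RefSeq promoters (GRCh38.p14, 250 bases before to 50 after the start) were at hand for 38 of the 44 members. The CHR letters TTTGAA or TTCGAA, on either strand, were in 27 of them (71.1%), against 10.9% of 9075 promoters of genes tested at day 2 and 16.4% of all 35116 promoters. CCAAT, on either strand, was in 26 (68.4%), against 36.7% and 34.6%. Both were in 20 members (52.6%), against 4.66% and 6.38%. By call, 15 of 23 called members with a promoter held the CHR letters (65.2%) and 12 of 15 members that were not called (80%). A match is a description of letters and does not show that a factor binds. Of the called members, CKAP2, CCNA2 and CCNB1 had the smallest p, and their promoters hold no CHR letters. Shown, to place the matched letters, are the promoters of the 4 called members of smallest p that hold both motifs in the printed stretch. It runs from 170 bases before to 30 bases after the start. Capitals mark CHR and CCAAT letters, in either orientation, and each is written 5′ to 3′ on the gene's strand.
TOP2A (chr17:40417867-40418066, minus strand, GRCh38.p14): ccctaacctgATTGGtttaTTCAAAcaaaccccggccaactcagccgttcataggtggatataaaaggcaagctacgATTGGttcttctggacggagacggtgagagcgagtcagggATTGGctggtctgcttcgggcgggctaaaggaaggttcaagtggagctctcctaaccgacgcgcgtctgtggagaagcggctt
ECT2 (chr3:172750556-172750755, plus strand, GRCh38.p14): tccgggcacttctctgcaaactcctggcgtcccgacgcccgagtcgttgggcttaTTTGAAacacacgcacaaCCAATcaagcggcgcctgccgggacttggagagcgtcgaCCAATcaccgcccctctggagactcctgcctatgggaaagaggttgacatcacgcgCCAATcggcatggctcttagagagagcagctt
PLK1 (chr16:23678719-23678918, plus strand, GRCh38.p14): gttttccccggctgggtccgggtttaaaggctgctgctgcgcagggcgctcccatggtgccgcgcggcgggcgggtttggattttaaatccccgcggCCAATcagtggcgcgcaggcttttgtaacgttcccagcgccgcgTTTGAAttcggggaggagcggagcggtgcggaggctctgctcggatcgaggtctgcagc
CCNB2 (chr15:59104976-59105175, plus strand, GRCh38.p14): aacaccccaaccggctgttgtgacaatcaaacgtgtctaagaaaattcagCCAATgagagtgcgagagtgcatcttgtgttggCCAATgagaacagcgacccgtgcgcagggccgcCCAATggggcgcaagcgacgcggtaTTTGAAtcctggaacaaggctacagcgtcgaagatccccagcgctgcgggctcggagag
In PLK1 and CCNB2 the CHR letters begin 29 bases before the start. In TOP2A they begin 151 bases before it and in ECT2 115 bases before it. CCNB2, TOP2A and ECT2 each have 3 CCAAT matches in this stretch and PLK1 has 1.

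Other genes of the same processes were taken from 6 lists of kinetochore, cohesin, condensin, anaphase-promoting complex, spindle and mitotic entry genes that share no gene with the 44 members. Of their 118 tested genes 41 fell and 3 rose, with a median log2 fold change of −0.08, against 11.0% lower and 12.3% higher among all genes. Of the spindle and cytokinesis genes 17 of 36 fell and 0 rose (21 and 0 at an unadjusted p under 0.05 in edgeR, and 17 and 0 by DESeq2 and by limma-voom). CEP55, which recruits the machinery that cuts the midbody, went from 233 ± 3.54 to 191 ± 4.71 CPM (−0.29, edgeR adjusted p 3.48e-08). GTSE1, a microtubule plus-end protein, went from 103 ± 4.0 to 81.6 ± 4.64 CPM (−0.33, edgeR adjusted p 8.7e-07). The spindle protein CKAP2L (−0.34) and the chromokinesin KIF4A (−0.24) also fell.

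Of 33 other kinetochore and centromere genes 10 fell (30.3%, against 11.0% of all genes) and 3 rose (9.09%, against 12.3%). DESeq2 and limma-voom gave the same numbers. CDCA8, the borealin of the chromosomal passenger complex, went from 94.1 ± 0.915 to 76.4 ± 4.97 CPM (−0.30, edgeR adjusted p 4.93e-06). HJURP, the chaperone that loads CENPA at centromeres, went from 74.2 ± 1.02 to 60.6 ± 2.41 CPM (−0.29, edgeR adjusted p 1.08e-05). CENPI (−0.29) and ZWINT (−0.16) fell as well. The 3 that rose, named after their values were seen, were KNTC1 (0.18), CENPH (0.18) and SPDL1 (0.12). Of 16 mitotic entry regulators 6 fell (37.5%, against 11.0% of all genes) and 0 rose. The numbers were 7 and 0 unadjusted in edgeR, and 6 and 0 by DESeq2 and limma-voom. Those that fell included the PP1 adaptor CDCA2 (−0.32), the PP2A inhibitor ENSA (−0.19), CCNF (−0.26) and CDCA3 (−0.18).

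Of 13 cohesin genes 4 fell (30.8%, against 11.0% of all genes) and 0 rose. The numbers were 6 and 0 unadjusted in edgeR, and 4 and 0 by DESeq2 and limma-voom. The 4 were the release factor WAPL (−0.18), STAG1 (−0.26), STAG2 (−0.12) and PDS5B (−0.15). Of 17 genes of the anaphase-promoting complex and its regulators 4 fell (23.5%, against 11.0% of all genes) and 0 rose. The numbers were 4 and 0 unadjusted in edgeR, 2 and 0 by DESeq2, and 4 and 0 by limma-voom. Those that fell in edgeR were the subunits CDC27 (−0.17) and ANAPC10 (−0.22), the G1 activator FZR1 (−0.15) and the inhibitor FBXO5 (−0.12). None of the 3 condensin II subunits passed edgeR, where 1 fell at an unadjusted p under 0.05, nor DESeq2 or limma-voom (NCAPG2 −0.10, NCAPH2 −0.09, NCAPD3 0.06).

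Genes that control transcription of the set were called about as often as genes at large. Of 19 tested genes of the DREAM and MuvB complexes, the E2F family and FOXM1, 3 fell (15.8%, against 11.0% of all genes) and 2 rose (10.5%, against 12.3%). FOXM1, an activator of G2 and mitosis genes, did not pass, with 136 ± 8.93 CPM in wild type and 129 ± 1.99 CPM in the knockout (−0.08, edgeR adjusted p 0.138). MYBL2, which joins MuvB in S phase, was at 235 ± 7.43 and 248.5 ± 1.57 CPM (0.08, edgeR adjusted p 0.0818). The MuvB subunit LIN9 fell from 31.2 ± 1.85 to 26.2 ± 0.670 CPM (−0.25, edgeR adjusted p 0.00394), RBBP4 fell by 0.15 and RB1 by 0.19 on the log2 scale, and E2F1 rose (0.19), as did RBL2 (0.22), named after its value was seen. Of 5 CDK inhibitors tested, CDKN1A, which encodes p21 and is a target of p53, was at 31.1 ± 0.736 CPM in wild type and rose to 42.5 ± 0.275 CPM (0.45, edgeR adjusted p 2.51e-07), while none fell (1 at an unadjusted p under 0.05 in edgeR, 0 by DESeq2 and limma-voom). That is 20% called higher, against 12.3% of all genes. The others were CDKN2D (−0.40), CDKN1C (−0.50) and CDKN3 (−0.07), with CDKN1B last by p. CDKN2D (3.5 and 2.63 CPM, standard error 0.19, edgeR adjusted p 0.129) and CDKN1C (0.93 and 0.65 CPM, standard error 0.33, edgeR adjusted p 0.285) had low counts.

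G1 and S phase genes were called in both directions. Of 40 G1/S cyclin and DNA replication genes 2 fell (5%, against 11.0% of all genes) and 8 rose (20%, against 12.3%), with a median log2 fold change of −0.00 (−0.000574). RRM2, a subunit of ribonucleotide reductase, went from 162 ± 5.22 to 139 ± 2.37 CPM (−0.22, edgeR adjusted p 2.06e-05) and CDK4 fell by 0.17 on the log2 scale. CDK6 (0.21) and the D-type cyclin CCND1 (0.18) rose. The difference between this list and the mitosis members was not tested. Summed over the list, these genes were at 4486 to 4546 CPM in wild type and 4538 to 4571 CPM in the knockout, with overlapping groups.

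**Figure D3:**
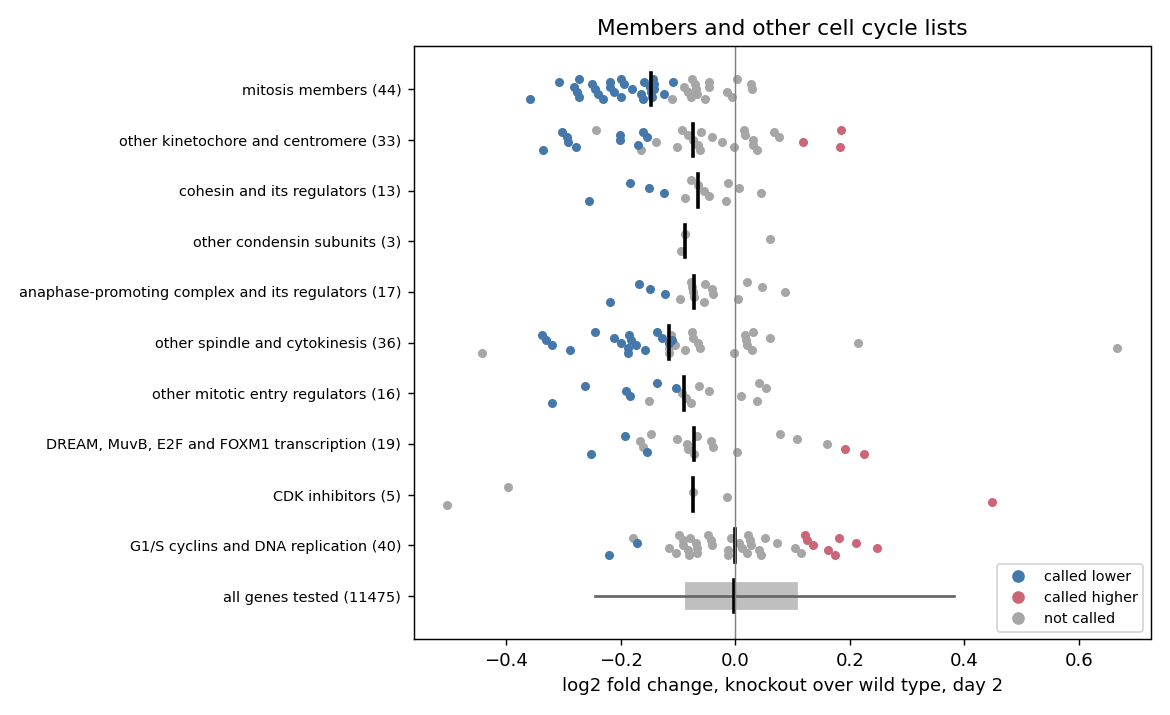
Each point is a gene, the x axis is its log2 fold change at day 2 (knockout over wild type), and rows are the 44 members and 9 other cell cycle lists, with the number tested. Blue genes were called lower, red genes higher, black bars are medians, and the bottom row shows the 5th, 25th, 50th, 75th and 95th percentiles of all 11475 genes. The members' median is at −0.15 and that of the G1/S and replication genes is at 0 to within 0.01 (−0.000574).

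At day 0, in undifferentiated cells, most of the same genes had a higher value in the knockout library. With 1 library per genotype there is no replicate check and no test, and ratios are on the log2 scale of FPKM + 1. Of the 44 members 14 were below 0 and 30 above, against 7148 below and 6134 above among the 13282 genes compared. The members' median was 0.14, against −0.03 for all genes compared. At least 25% higher in the knockout were 9 members (14.9% of all genes) and at least 20% lower, the same fold in the other direction, were 3 members (22.2% of all genes). Values past the higher limit were also found in lists outside the members. Of 40 G1/S and replication genes 13 were past it and 4 past the lower one (median 0.20). Of 19 DREAM, MuvB, E2F and FOXM1 genes the numbers were 7 and 2 (median 0.24). In the other mitotic lists together they were 20 and 13 of 123. Of 5 CDK inhibitors 0 were past the higher limit and 4 past the lower (median −0.44). FPKM is scaled for length, so levels can be compared between genes: PTTG1 (131 FPKM), TPX2 (129), UBE2C (116) and TOP2A (113) were the highest in wild type, and CENPE (7.84) and CENPA (8.60) the lowest. The median member was at 27.9 FPKM in wild type, against 9.04 FPKM for all genes compared.

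The members with higher values in the knockout at day 0 were led by TTK, at 15.6 FPKM in wild type and 23.3 FPKM in the knockout (0.55). ANLN (18.2 and 25.6 FPKM, 0.47), KIF23 (24.9 and 34.9 FPKM, 0.47), ECT2 (26.2 and 36.3 FPKM, 0.45) and CCNB1 (66.2 and 90.8 FPKM, 0.45) followed. CENPE (7.84 and 10.9 FPKM, 0.43), INCENP (24.9 and 32.8 FPKM, 0.38), DLGAP5 (68.4 and 88.0 FPKM, 0.36) and SMC2 (11.5 and 14.7 FPKM, 0.33) were also past that limit. All 3 cytokinesis genes were above 0, and 2 of them past the limit. The 3 members past it in the other direction were CCNB2 (54.2 and 39.4 FPKM, −0.45), BUB1 (80.1 and 61.2 FPKM, −0.38) and CENPA (8.60 and 6.46 FPKM, −0.36).

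The other members that fell at day 2 were within these limits at day 0 on the scale of FPKM + 1. KIF20A was just inside (0.32), and its FPKM without the added 1 was 25.8% higher in the knockout, so that with a pseudocount of 0.1 FPKM 10 members were past the limit. CCNA2 was at 30.9 FPKM in wild type and 38.6 FPKM in the knockout, CDC25C at 10.3 and 11.7, PLK1 at 37.3 and 40.9, AURKA at 39.5 and 39.4, BUB3 at 55.3 and 60.5, and CDC20 at 68.0 and 77.2. UBE2C was at 116 and 114 FPKM, ESPL1 at 14.0 and 16.5, NDC80 at 25.1 and 21.8, KIF11 at 17.3 and 21.4, KIF20A at 21.1 and 26.6, and KIF2C at 44.4 and 38.5. TPX2 was at 129 and 117 FPKM, NUSAP1 at 36.6 and 43.5, CKAP2 at 26.5 and 24.7, NCAPG at 11.1 and 13.6, NCAPH at 29.3 and 32.6, and TOP2A at 113 and 99.8. At day 0 CCNB1 and CCNB2, both lower in the knockout at day 2, lay on opposite sides of 0, and CDK1 was at 65.6 and 65.9 FPKM. Of the 28 members that fell at day 2, 19 were above 0 at day 0 and 9 below, and 8 (28.6%) were at least 25% higher, against 22.6% of the 1196 genes called lower at day 2 and compared on both days. Of all 44 members these 8 were 18.2%, against 2.46% of the 10994 genes compared on both days. This second contrast carries over the day 2 calls, which the rule requires, so it adds nothing to the first. CDKN1A, which rose at day 2, was at 20.6 FPKM in wild type and 14.7 FPKM in the knockout (−0.46) at day 0. FOXM1, which did not pass at day 2, was at 11.2 and 28.8 FPKM at day 0 (1.29). MYBL2 was at 53.7 and 69.5 FPKM (0.37) and LIN9 at 4.83 and 4.94 FPKM (0.03). These day 0 differences were not tested.

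**Figure D4:**
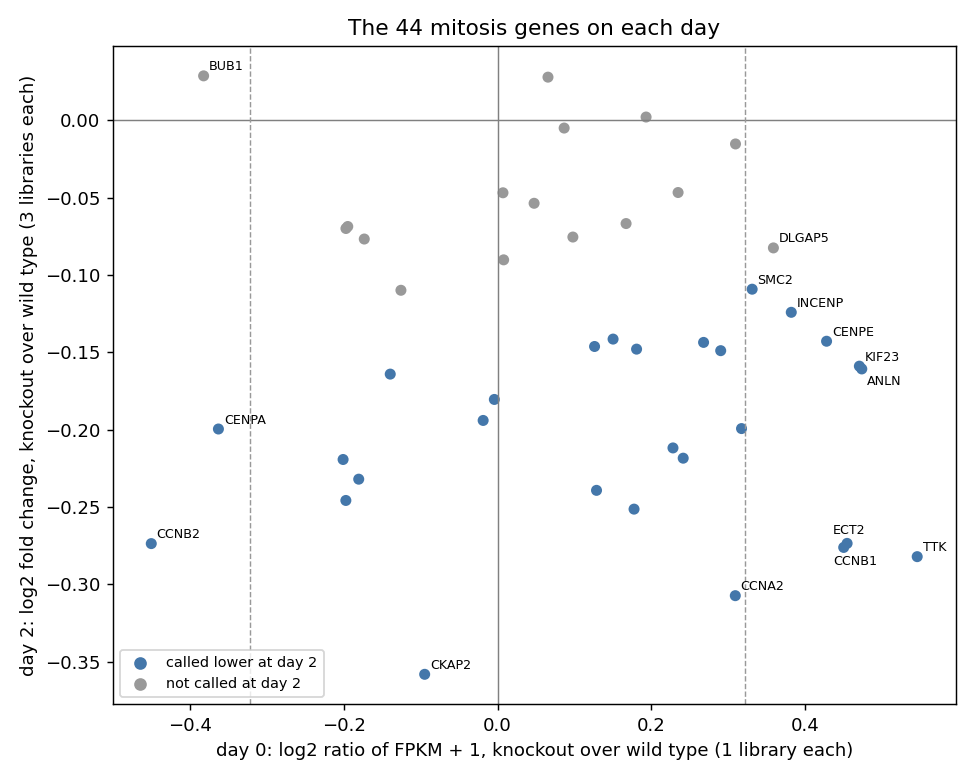
Each point is a member. The x axis is the day 0 log2 ratio of FPKM + 1 (1 library per genotype), the y axis the day 2 log2 fold change (3 libraries per genotype), both knockout over wild type, and dashed lines mark 25% higher and 20% lower at day 0. Points called lower at day 2 (blue) lie below 0 on the y axis and on both sides of 0 on the x axis, 19 to the right and 9 to the left.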

How the data were processed

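RNA-seq of H1 cells was used from 2 wild-type and knockout libraries at day 0 and from 6 at day 2. The day 0 values are FPKM and the day 2 values raw counts per gene, per the file headers. HISAT2, StringTie and GRCh38 are named per the submitters' processing notes. No tool, strand setting or annotation release is known for the counting.

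Counts as deposited by the authors were filtered with filterByExpr, scaled by TMM and tested with edgeR 4.0.16 (quasi-likelihood, genotype only, R 4.3.3, Benjamini-Hochberg adjustment over all 11475 genes). DESeq2 1.42.0 and limma-voom (limma 3.58.1) were alternatives. CPM values use the TMM-scaled library sizes. Total counts of 27880068 to 39553614 gave 795 to 20750 counts per member and library. Day 0 ratios use a pseudocount of 1 FPKM and only genes that reached 1 FPKM in 1 or both libraries. On counts simulated for this day 2 comparison over 11468 genes, 64% of genes changed 1.2-fold and 88% of those changed 1.5-fold were recovered. There were 16 false calls among the genes left unchanged.

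All 44 members are named, with full values for those called at day 2. From each other list up to 4 genes with the smallest p are named, plus FOXM1, MYBL2, LIN9, CDKN1A and SETD7. The members and lists were chosen with earlier results of these data known. Other settings tried were scaling, low-count filters, a replicate block, removal of GC and length trends, and leaving out each library. Same-numbered wild-type and knockout libraries were not paired.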

Additional observations from a re-analysis of the deposited data

Results flagged for a closer look

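For 8 members the single pair of day 0 libraries differed in the opposite direction to day 2, at least 25% higher in the knockout at day 0 and past the edgeR threshold at day 2. These were 28.6% of the 28 members that fell, near the 22.6% of all 1196 genes called lower at day 2 and compared on both days, so the count is not a result about the members. The difference between the days was not tested, since day 0 has 1 library per genotype and was deposited as FPKM rather than counts.

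The day 0 log2 ratio, knockout over wild type, was 0.546 for the checkpoint kinase TTK, 0.474 for the contractile ring gene ANLN, 0.471 for the kinesin KIF23 and 0.455 for the RhoA activator ECT2. It was 0.450 for CCNB1, 0.428 for the kinetochore motor CENPE, 0.382 for INCENP and 0.331 for SMC2. At day 2 each of these genes fell, by 0.28 on the log2 scale in TTK and by 0.11 in SMC2. INCENP and SMC2 lost their day 2 call when single libraries were left out. CCNB2 and CENPA were lower in the knockout past both limits on both days. With a pseudocount of 5 FPKM, CENPE, SMC2 and CENPA were within the day 0 limits.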

How the results depend on the processing

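Under 14 alternatives at day 2, 24 of the 28 called members were called lower in every one; the exceptions were SMC2, INCENP, CENPA and NCAPG. No member was called higher in any of the 14. Of the members that were not called, 5 passed under an alternative (AURKB, BIRC5, CENPF, PRC1 and MKI67). The members' median log2 fold change was −0.13 (−0.1315) with upper-quartile scaling and −0.16 (−0.1596) with GC and length trends removed, where 2047 genes were called lower in all. The cause was not tested. Signs reversed with upper-quartile scaling in SMC4 (0.000215) and NCAPD2 (0.0105). Leaving out single libraries gave −0.0251 to 0.0405 in HMMR and −0.0135 to 0.00848 in NCAPD2, where the sign changed in 3 and 2 of the 6 cases. The cause was not tested.

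Leaving out single libraries gave 25 to 30 members lower, a median of −0.1537 to −0.1423, 907 to 1202 genes lower and 1098 to 1307 higher. With the replicate block, 27 members were called lower, and 1005 genes lower and 1205 higher. Same-numbered libraries had correlations of −0.07, −0.07 and −0.04 between their deviations, and none correlated best with its own number. At day 0 the members' median was 0.126 with a pseudocount of 5 FPKM and 0.171 when centred on all genes. With that pseudocount 7 members were past the higher limit and 2 past the lower, and when centred 12 and 3. CENPE (0.308), SMC2 (0.257) and CENPA (−0.247) came within the limits with a pseudocount of 5 FPKM.

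Day 0 depth is unknown. In simulated counts 64% of changes of 1.2-fold were recovered at day 2, so calls of this size are incomplete over genes at large. The changed genes were drawn from a wide range of levels, and recovery was not measured for the members. Changes smaller than 1.2-fold were not simulated, and the members' median change was smaller (9.69% lower).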
